A study of Mus musculus with 4 samples.

Results

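Of the 28692 genes listed in 4 single-cell RNA-seq libraries of the embryonic mouse intestine, 7 genes for secreted signals are described here: the chemokine genes Ccl2, Ccl7, Cxcl1, Cxcl10, Cxcl12 and Cxcl13, and Csf1, the gene for a macrophage growth factor. They were chosen by name, as factors that stromal cells send to leukocytes, with earlier results of these data known. The libraries came from the intestine of untreated E12.5 embryos, 2 from the small intestine (SI) and 2 from the large intestine with the cecum (LI). All embryos were of the EYFP strain on a C57BL/6 background, in which a fluorescent reporter marks the cells, and each library held the pooled cells of several embryos, so that animals cannot be told apart within a library. The cells of both regions had been sorted as live cells that carried Itgb1 and YFP and lacked CD45 (a leukocyte marker), Ter119 (erythroid cells), CD31 (endothelium) and EpCAM (epithelium). Titles and treatment notes give the embryonic day, while other labels of the same samples name lamina propria and adult stroma; the titles were followed. Either a 3′ or a 5′ kit was used for a library, and which kit went with which library is not given in the sources used here, so that an effect of the kit cannot be told apart from other differences between libraries. Below, 4 values without names of libraries stand in the order LI replicate 1, LI replicate 2, SI replicate 1, SI replicate 2.

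Chemokines are small secreted proteins that guide leukocytes and other cells along a concentration gradient through G protein-coupled receptors. CCL2 and CCL7 bind CCR2 and draw monocytes out of the blood, CXCL1 binds CXCR2 and attracts neutrophils, and CXCL10 is an interferon-inducible ligand of CXCR3 on T cells. CXCL12 and CXCL13 are called homeostatic chemokines because stromal cells make them without inflammation: CXCL12, through CXCR4, retains hematopoietic progenitors and guides migrating cells in the embryo, while CXCL13, through CXCR5, takes part in the formation of lymph nodes and gut lymphoid tissue. CSF1 binds CSF1R and sustains macrophages.

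After filtering, 22094 of 24485 barcodes were kept, and the cells of LI replicate 1 were shallower than the rest, at a median of 4220.5 UMIs (unique molecular identifiers, which count captured transcript molecules) against 8382 to 8829 UMIs in the other 3 libraries. The cells were clustered without the 7 genes and without the other signal and response genes named below, and the clusters were joined into 6 groups by their leading genes. There were 1317 mesothelial-like cells (the lining of the gut surface), 1246 neural-like cells, 4476 smooth muscle-like cells, 2271 cells of a mesenchymal cluster led by Bmp3 and holding most Adamdec1 (Adamdec1/Bmp3 mesenchyme), 1778 cells of a cluster with Tac2 and Wnt4 among its 3 leading genes (Tac2/Wnt4 mesenchyme) and 10829 other mesenchymal cells in 4 clusters. The summed mesothelial markers stood at 2383 to 2651 CPM (the count of a gene scaled to a fixed total of the UMIs summed over a group in a library) in the mesothelial-like cells and at no more than 144 CPM in any other group, and neural markers at 3038 to 4540 CPM against no more than 214 CPM. Myh11, a smooth muscle myosin, ranged from 12.52 CPM in LI replicate 1 to 718 CPM in SI replicate 2 within the smooth muscle-like cells, so that this group was not alike across libraries. A remaining cluster of 177 cells, 159 of them in LI replicate 2, was left out of the groups. Its leading genes included Pf4, Afp and hemoglobin genes, but 7 mesenchyme markers were also detected in it. When doublets were kept in the clustering, 22 cells had these leading genes (3 in LI replicate 2), and a separate cluster of 175 shallow cells (median 3192 UMIs, 152 in LI replicate 2) fell to the other mesenchyme. Defining leukocyte markers were at or near 0: Ptprc, which encodes CD45, and Adgre1 had 0 UMIs in all kept cells, Csf1r had 8, and the 10 immune markers together summed to 4.63 to 8.86 CPM per library, mostly Lyz2 and Cd68.

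On the mm10 assembly with GENCODE M21, Ccl2 (ENSMUSG00000035385) lies on the forward strand at chr11:82035571-82037453. Ccl7 (ENSMUSG00000035373) follows it on the same strand at chr11:82045712-82047525, 8258 bases further on. Cxcl1 (ENSMUSG00000029380, forward strand, chr5:90891241-90893115), Cxcl10 (ENSMUSG00000034855, reverse strand, chr5:92346638-92348889) and Cxcl13 (ENSMUSG00000023078, forward strand, chr5:95956951-95961068) share a chromosome. Cxcl12 (ENSMUSG00000061353) lies on the forward strand at chr6:117168535-117181367 and Csf1 (ENSMUSG00000014599) on the reverse strand at chr3:107741048-107760469. These are whole gene bodies, exons, introns and UTRs together. The exons of Cxcl10 overlap those of Art3 on the opposite strand, and Art3 itself was counted at 0.727 to 1.46 CPM per library, with 1 to 8 UMIs per library in the Adamdec1/Bmp3 mesenchyme where Cxcl10 was highest. RefSeq promoters (build GRCm38.p6) were at hand for 5 of the 7 genes. They are shown for the 3 in which the NF-kB consensus motif was found. No test linked the motif to the levels of these genes or to the cells that held more than 1 of them. The 250 bases before the annotated start of the RefSeq gene are printed 5′ to 3′ on the strand of the gene, with matches in capitals: the NF-kB consensus on either strand and, in Cxcl10, the element GAAANNGAAA found in interferon-responsive promoters. Cxcl1 covers chr5:90890995-90891244, Cxcl10 chr5:92348890-92349139 and Csf1 chr3:107760470-107760719.
Cxcl1: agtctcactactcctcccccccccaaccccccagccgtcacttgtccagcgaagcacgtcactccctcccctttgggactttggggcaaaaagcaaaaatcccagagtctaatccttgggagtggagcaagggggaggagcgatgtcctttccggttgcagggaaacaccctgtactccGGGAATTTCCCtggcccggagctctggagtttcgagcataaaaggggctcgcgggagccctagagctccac
Cxcl10: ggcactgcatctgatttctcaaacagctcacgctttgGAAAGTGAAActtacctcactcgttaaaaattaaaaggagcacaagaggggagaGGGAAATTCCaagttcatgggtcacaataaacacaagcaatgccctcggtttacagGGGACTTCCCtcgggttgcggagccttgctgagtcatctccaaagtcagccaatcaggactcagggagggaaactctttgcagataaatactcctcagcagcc
Csf1: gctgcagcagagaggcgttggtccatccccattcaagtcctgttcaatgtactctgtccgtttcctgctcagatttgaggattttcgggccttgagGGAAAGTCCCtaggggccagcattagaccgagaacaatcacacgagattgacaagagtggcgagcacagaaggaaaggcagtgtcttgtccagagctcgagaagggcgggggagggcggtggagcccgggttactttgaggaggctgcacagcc
In Cxcl1 the capitals mark 2 overlapping NF-kB matches, 1 on each strand, that begin 71 and 70 bases before the start. Cxcl10 held the GAAANNGAAA element 213 bases before the start and NF-kB matches at 159 and 103 bases, and Csf1 held 1 NF-kB match on the other strand at 154 bases. The promoters of Cxcl12 and Cxcl13 held neither sequence in this window. Over all 32851 promoters of this length, 3.90% held the NF-kB consensus and 2.98% held GAAANNGAAA on either strand; a match is a description of the letters and not a binding site.

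The Tac2/Wnt4 mesenchyme had the highest level of 5 of the 7 genes in all 4 libraries: Ccl2, Ccl7, Cxcl1, Cxcl12 and Csf1. Of the other members, Cxcl10 was highest in the Adamdec1/Bmp3 mesenchyme in 3 of 4 libraries and Cxcl13 in the mesothelial-like cells in 3 of 4. The 6 pericyte markers summed to 106 to 183 CPM in the Tac2/Wnt4 mesenchyme and to 26.5 to 73.2 CPM in the other mesenchyme, without overlap. In the Adamdec1/Bmp3 mesenchyme they summed to 32.8 to 246 CPM, a range that encloses that of the Tac2/Wnt4 mesenchyme. One of them, Higd1b, had 1 UMI in all, and their part in the results was not tested. Summed counts of the 6 groups in the 4 libraries were compared with edgeR, with library as a block and other mesenchyme as the reference. In the Tac2/Wnt4 mesenchyme 6 of 7 members were called higher at an adjusted p under 0.05, where 10.7% of the 12938 genes tested were called higher and 21.4% called in either direction. One of the 6, Ccl7, passed the filter on low counts only through its counts in this group, so that its call is no support for the count. The median log2 fold change of the members was 1.61, against -0.02 over all genes tested. In the Adamdec1/Bmp3 mesenchyme 1 member was higher and 2 were lower (7.95% of genes called higher and 8.81% lower, 16.8% in all). In the mesothelial-like cells 2 were higher and 1 lower (20.5% of genes called higher and 21.2% lower, 41.7% in all). In the smooth muscle-like cells 1 was higher and 3 lower (4.04% of genes called higher and 5.14% lower, 9.18% in all), and in the neural-like cells 6 were lower (30.5% of genes called lower, 59% in all). The shares called among all genes include the genes that drew the clusters. The members themselves were kept out of the clustering, but genes that vary with them were not, so these p-values describe the groups as drawn; they measure the spread between these 4 pooled libraries.

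**Figure D1:**
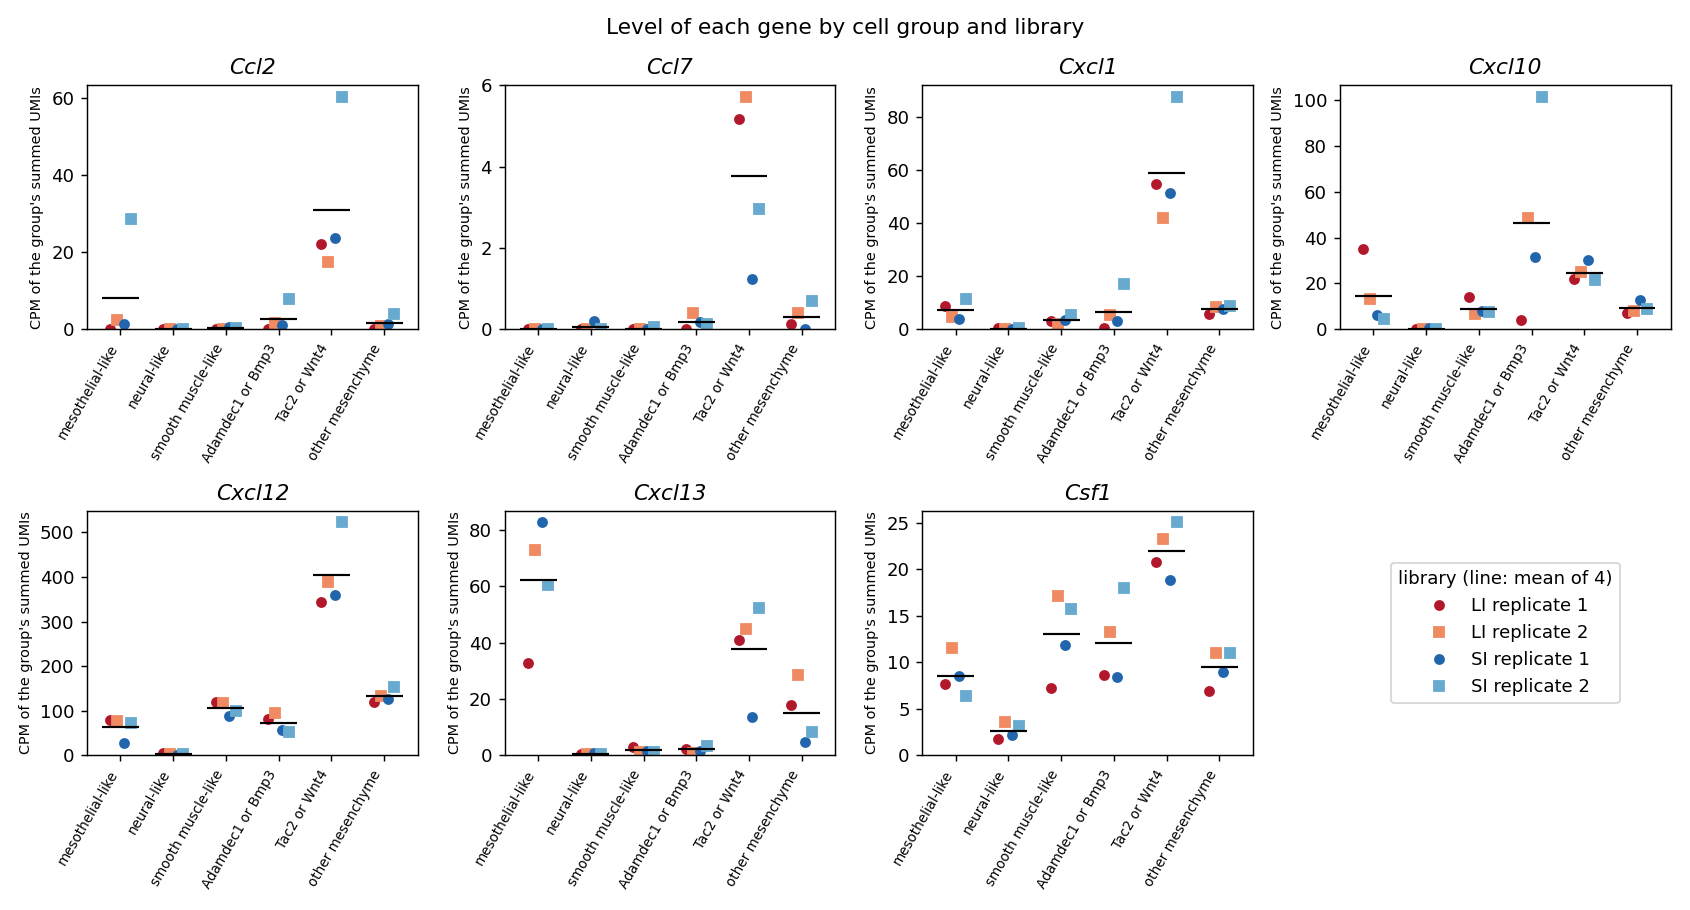
Level of each of the 7 genes in CPM of a group's summed UMIs (vertical axes, each with its own scale) in 6 cell groups; each point is a library and the line is the mean of the 4 libraries. In the Tac2/Wnt4 mesenchyme all 4 libraries lie above those of every other group for Ccl7, Cxcl1, Cxcl12 and Csf1, Cxcl10 spreads from 4.30 to 102 CPM in the Adamdec1/Bmp3 mesenchyme, and the neural-like cells lie lowest or near 0 in every panel.

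Ccl2 was counted mostly in the Tac2/Wnt4 mesenchyme. Its level there was 22.2 CPM in LI replicate 1, 17.5 CPM in LI replicate 2, 23.7 CPM in SI replicate 1 and 60.4 CPM in SI replicate 2, from 47, 55, 77 and 346 UMIs. SI replicate 2 stood above the other 3 libraries, which lay close together. In the other mesenchyme the level of Ccl2 was 0.20 to 3.89 CPM, so that the 2 groups did not overlap, and the fitted difference was 4.47 ± 0.44 (log2 fold change ± SE, 22.1-fold, adjusted p = 4.39e-07). The Tac2/Wnt4 mesenchyme was 6.75% to 10.7% of the kept cells of a library and held 57.3% to 94.0% of the Ccl2 UMIs. The Adamdec1/Bmp3 mesenchyme, at 0 to 7.80 CPM, was not distinguished from the other mesenchyme (0.76 ± 0.53, adjusted p = 0.348). The mesothelial-like cells had 0, 2.39, 1.35 and 28.7 CPM of Ccl2 and were called higher than other mesenchyme (1.93 ± 0.56, adjusted p = 0.00846). That call rested on SI replicate 2, where 36 of 45 UMIs came from a single cell: the level there was 5.77 CPM without this cell, and without SI replicate 2 the difference was 0.55 (adjusted p = 0.637). Smooth muscle-like cells held 0 to 0.59 CPM and were called lower (-2.40 ± 0.74, adjusted p = 0.0441), a call that was kept under 4 of 12 other settings and lost, among others, without LI replicate 2 (-2.34, adjusted p = 0.228), SI replicate 1 (-3.01, adjusted p = 0.0843) or SI replicate 2 (-1.39, adjusted p = 0.457). In neural-like cells 1 Ccl2 UMI was counted in all, and the group was called lower (-4.68 ± 1.30, adjusted p = 0.00391). This call was kept under 11 of 12 other settings and lost with doublets kept (-0.86, adjusted p = 0.411).

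Few cells carried the transcript at all. To compare shares at equal depth, each cell was thinned at random to 2000 UMIs and shallower cells were left out. In the Tac2/Wnt4 mesenchyme a Ccl2 UMI was then found in 11 of 407 cells of LI replicate 1 (2.70%, 95% Wilson interval 1.52% to 4.77%), 7 of 321 cells of LI replicate 2 (2.18%, 1.06% to 4.43%), 16 of 376 cells of SI replicate 1 (4.26%, 2.64% to 6.80%) and 37 of 662 cells of SI replicate 2 (5.59%, 4.08% to 7.61%). Unthinned, the shares were 5.58% to 14.0%. In the neural-like cells, a type that should lack the gene, a Ccl2 UMI was found in none of the thinned cells. This allows a share of cells with a UMI at this depth of up to 0.69% to 1.38% per library. It sets no limit on cells whose transcripts were missed at this depth. The median depth of the neural-like cells before thinning (11107.5 to 19853 UMIs) was above that of the Tac2/Wnt4 mesenchyme (4656 to 8947 UMIs). Intervals and limits cover counting error only. With 2 libraries against 2 an exact permutation test cannot give a p below 1 in 3, so the shares were not tested.

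Ccl7, the neighbour of Ccl2 and a ligand of the same receptor, was a rare transcript, with 82 UMIs in all kept cells. The Tac2/Wnt4 mesenchyme held 11, 18, 4 and 17 of them, or 5.18, 5.73, 1.23 and 2.97 CPM. These values lay above the 0 to 0.70 CPM of the other mesenchyme in every library, the ranges did not overlap, and the fitted difference was 3.49 ± 0.52 (11.3-fold, adjusted p = 0.000113). Ccl7 passed the filter on low counts only through its counts in this group, so the difference is given as a description. It could be fitted under 7 of 12 other settings, and without the filter it was 3.52 (adjusted p = 5.75e-05). No Ccl7 UMI was counted in the mesothelial-like cells. In both genes the Tac2/Wnt4 mesenchyme stood highest, but the libraries were ordered differently: Ccl2 was highest in SI replicate 2 and Ccl7 in LI replicate 2.

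Cxcl1, the neutrophil attractant, followed the same pattern at a level that allowed a firmer comparison. In the Tac2/Wnt4 mesenchyme its level was 54.7 CPM in LI replicate 1, 42.0 CPM in LI replicate 2, 51.1 CPM in SI replicate 1 and 87.6 CPM in SI replicate 2. The next group, other mesenchyme, held 5.71 to 8.90 CPM, and no library of any other group exceeded 17.2 CPM, so the Tac2/Wnt4 mesenchyme did not overlap with any of them. The difference from other mesenchyme was 2.88 ± 0.27 (7.36-fold, adjusted p = 1.91e-07) and was called under all 12 other settings, at 2.78 to 3.08. The group held 35.4% to 54.2% of all Cxcl1 UMIs. Below it, other mesenchyme, mesothelial-like cells (4.05 to 11.5 CPM) and Adamdec1/Bmp3 mesenchyme (0.39 to 17.2 CPM) overlapped with each other. In the mesothelial-like cells of SI replicate 2, 13 of the 18 UMIs of Cxcl1 came from a single cell. Smooth muscle-like cells held 2.16 to 5.26 CPM and were called lower than other mesenchyme (-1.16 ± 0.32, adjusted p = 0.0241), although this call was lost without LI replicate 2 (-0.93, adjusted p = 0.248) and without SI replicate 1 (-1.17, adjusted p = 0.133). Among thinned cells of the Tac2/Wnt4 mesenchyme 4.05% to 9.37% per library had a Cxcl1 UMI (13.4% to 19.1% unthinned), against 0 to 0.38% of neural-like cells.

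Cxcl10, the interferon-inducible chemokine, varied widely between the libraries. In the Adamdec1/Bmp3 mesenchyme it was 4.30 CPM in LI replicate 1, 48.5 CPM in LI replicate 2, 31.4 CPM in SI replicate 1 and 102 CPM in SI replicate 2. LI replicate 1 was the low library, and it was also the shallowest and the one with the lowest Adamdec1, at 3.90 CPM in that group against 4.61 to 56.0 CPM in the others; the part of either in the result was not tested. Single cells weighed on these levels: 68 of 235 Cxcl10 UMIs in LI replicate 2 were in 1 cell, without which its level was 34.5 CPM, and a cell of SI replicate 2 held 92. The group was called higher than other mesenchyme, which held 7.15 to 12.8 CPM (2.38 ± 0.48, 5.22-fold, adjusted p = 0.00151), and the call was kept under all 12 other settings, with differences of 1.71 to 2.76. After thinning, 0.60% of the cells of LI replicate 1 had a Cxcl10 UMI (3 of 498, 95% Wilson interval 0.21% to 1.76%), 1.99% of LI replicate 2 (1.05% to 3.73%), 4.29% of SI replicate 1 (2.90% to 6.31%) and 8.13% of SI replicate 2 (6.38% to 10.3%). Unthinned, these shares were 1.21%, 3.52%, 7.64% and 14.3%, in the same order of libraries, and no thinned neural-like cell had a Cxcl10 UMI.

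In the Tac2/Wnt4 mesenchyme, by contrast, Cxcl10 varied little, at 22.2 and 25.1 CPM in LI replicates 1 and 2 and 30.2 and 21.6 CPM in SI replicates 1 and 2. All 4 values lay above those of the other mesenchyme, yet the difference of 1.40 ± 0.51 missed the threshold (adjusted p = 0.0548), and it passed under 5 of 12 other settings, among them the fit without LI replicate 1 (1.35, adjusted p = 0.0140). A single cell of LI replicate 2 held 23 of its 79 UMIs. Mesothelial-like cells held 34.98, 13.1, 6.30 and 4.46 CPM, from 105, 33, 14 and 7 UMIs, with both LI libraries above both SI libraries. In LI replicate 2, 11 of the 33 UMIs were in 1 cell, without which the level was 8.79 CPM. Smooth muscle-like cells, at 6.62 to 13.9 CPM, overlapped with the other mesenchyme.

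Cxcl12, the CXCR4 and ACKR3 ligand, was the broadest of the 7 genes, with 22647 UMIs in all kept cells and a UMI in 32.9% to 53.0% of the unthinned cells of a library. Its level in the Tac2/Wnt4 mesenchyme was 344 and 389 CPM in LI replicates 1 and 2 and 359 and 523 CPM in SI replicates 1 and 2. No other group came near these values: other mesenchyme held 118 to 152 CPM, smooth muscle-like cells 88.6 to 120 CPM, Adamdec1/Bmp3 mesenchyme 51.7 to 94.2 CPM and mesothelial-like cells 27.9 to 78.3 CPM. These 4 groups overlapped with their neighbours in the order of levels. Against other mesenchyme the Tac2/Wnt4 mesenchyme was 3.05-fold higher (1.61 ± 0.18, adjusted p = 1.72e-06), while the Adamdec1/Bmp3 mesenchyme (-0.89 ± 0.18, adjusted p = 0.00195) and the mesothelial-like cells (-1.08 ± 0.20, adjusted p = 0.000176) were lower. For smooth muscle-like cells the difference was -0.32 ± 0.18 (adjusted p = 0.307). The neural-like cells held 1.30 to 4.22 CPM and stood 5.83 ± 0.30 below other mesenchyme on the log2 scale (adjusted p = 6.48e-13). The difference was called under all 12 other settings, from -6.11 to -4.11, the smallest with doublets kept. At 2000 UMIs per cell, 43.0% of Tac2/Wnt4 cells had a Cxcl12 UMI in LI replicate 1 (95% Wilson interval 38.3% to 47.9%), 49.5% in LI replicate 2 (44.1% to 55.0%), 50.3% in SI replicate 1 (45.2% to 55.3%) and 61.9% in SI replicate 2 (58.2% to 65.6%), and 70.1% to 94.1% had one without thinning. In the neural-like cells these shares were 0 to 0.76% thinned and 1.84% to 4.17% unthinned.

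Cxcl13, which takes part in lymphoid tissue formation, had a different leading group. The mesothelial-like cells held 32.6 CPM in LI replicate 1, 72.8 CPM in LI replicate 2, 82.8 CPM in SI replicate 1 and 60.5 CPM in SI replicate 2. The Tac2/Wnt4 mesenchyme followed with 41.0, 44.9, 13.6 and 52.2 CPM in the same libraries, and the 2 groups overlapped, LI replicate 1 being higher in the latter. Other mesenchyme held 17.7 and 28.6 CPM in LI replicates 1 and 2 and 4.70 and 8.15 CPM in SI replicates 1 and 2. Both leading groups were called above it, the mesothelial-like cells by 2.26 ± 0.39 (4.78-fold, adjusted p = 8.13e-05) under all 12 other settings as well, and the Tac2/Wnt4 mesenchyme by 1.48 ± 0.38 (2.78-fold, adjusted p = 0.0083). The latter call was lost without SI replicate 2 (1.06, adjusted p = 0.119) and against the largest cluster of other mesenchyme alone (1.10, adjusted p = 0.0733). Smooth muscle-like cells (1.01 to 3.06 CPM) were called lower than other mesenchyme (-3.15 ± 0.54, adjusted p = 0.000538), under all 12 other settings as well. The Adamdec1/Bmp3 mesenchyme (0.82 to 3.40 CPM) was also lower (-2.58 ± 0.56, adjusted p = 0.00317), but not without LI replicate 2 (-1.82, adjusted p = 0.0744). In thinned mesothelial-like cells a Cxcl13 UMI was found in 5.73% (95% Wilson interval 4.17% to 7.83%) and 10.2% (6.96% to 14.7%) of cells in LI replicates 1 and 2 and in 15.2% (11.4% to 19.95%) and 9.41% (5.88% to 14.7%) in SI replicates 1 and 2. Unthinned, 11.6% to 40.7% had one, against 0.45% to 0.92% of neural-like cells.

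Csf1, the macrophage growth factor, was found in all groups, with smaller differences between them. Its level in the Tac2/Wnt4 mesenchyme was 20.7 and 23.2 CPM in LI replicates 1 and 2 and 18.8 and 25.1 CPM in SI replicates 1 and 2. All 4 values lay above the 17.1 CPM or less measured in the smooth muscle-like cells and the 6.89 to 11.02 CPM of the other mesenchyme, and the highest value of any other group was 18.0 CPM in the Adamdec1/Bmp3 mesenchyme. The difference between Tac2/Wnt4 and other mesenchyme was 1.21 ± 0.16 (2.31-fold, adjusted p = 1.07e-05) and was called under all 12 other settings. Smooth muscle-like cells, at 7.23 to 17.1 CPM, were called slightly higher than other mesenchyme (0.48 ± 0.15, 1.39-fold, adjusted p = 0.0459), a call kept under 4 of 12 other settings and lost without LI replicate 2 (0.42, adjusted p = 0.282), SI replicate 1 (0.53, adjusted p = 0.162) or SI replicate 2 (0.47, adjusted p = 0.129). Neural-like cells held 1.69 to 3.59 CPM and were 1.79 ± 0.21 lower on the log2 scale (adjusted p = 2.55e-07). Unlike the inducible chemokines, Csf1 reached at most 6 UMIs in any cell. A Csf1 UMI was found in 2.46% to 4.53% of thinned Tac2/Wnt4 cells (9.22% to 17.7% unthinned) and in 0 to 0.92% of thinned neural-like cells.

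**Figure D2:**
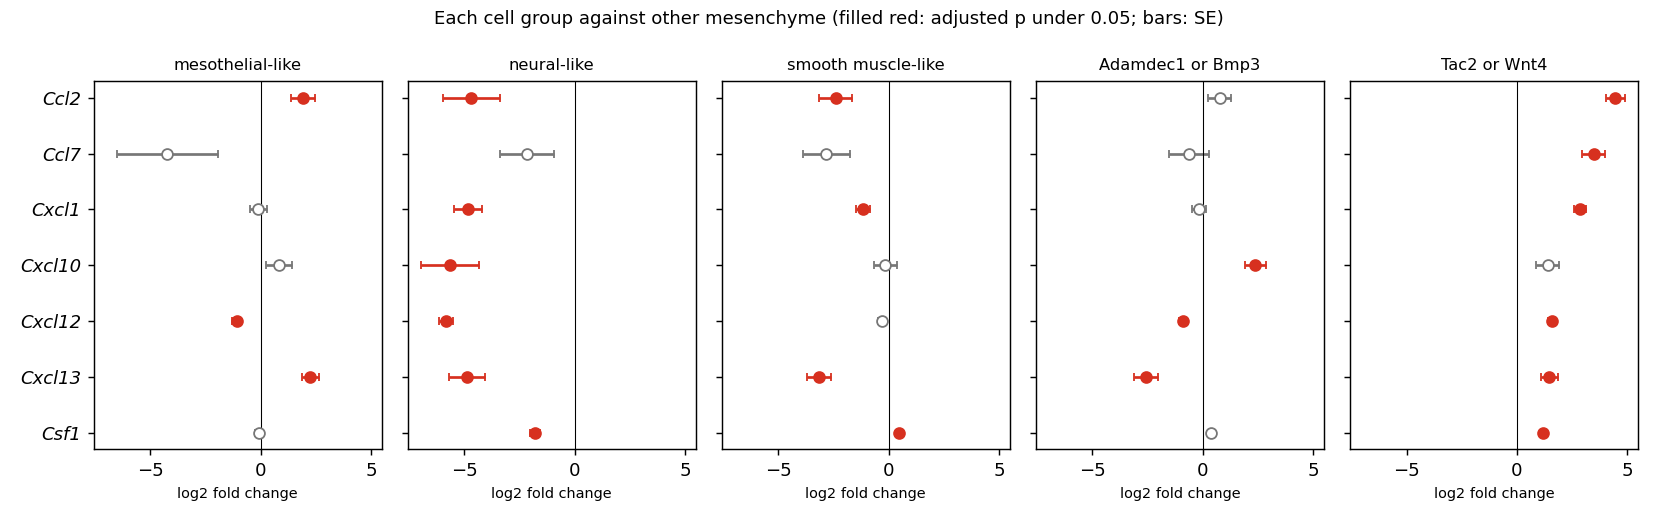
Log2 fold change of each gene in 5 cell groups against other mesenchyme, from the edgeR fit of 24 sums with library as a block; bars are standard errors and filled red points have an adjusted p under 0.05. The Tac2/Wnt4 panel holds 6 filled points above 0, and the values for Ccl7 outside the Tac2/Wnt4 panel and for the chemokines other than Cxcl12 in the neural-like panel rest on counts at or near 0, so that their size depends on the fit.

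The share of each gene's UMIs by group shows how unlike the 7 genes were. Averaged over the libraries, the Tac2/Wnt4 mesenchyme held 69.6% ± 16.6 (SD, n = 4) of Ccl2, 65.8% ± 14.4 of Ccl7, 43.9% ± 8.68 of Cxcl1, 25.3% ± 7.36 of Cxcl12, 23.4% ± 17.1 of Cxcl13, 16.1% ± 3.38 of Csf1 and 12.6% ± 2.02 of Cxcl10. The largest mean shares of Cxcl10 were in the Adamdec1/Bmp3 mesenchyme (32.9% ± 26.3) and the other mesenchyme (28.8% ± 8.98), but the libraries differed. The Adamdec1/Bmp3 mesenchyme held the most in LI replicate 2 (40.9%) and SI replicate 2 (64.9%), and the other mesenchyme in SI replicate 1 (35.1%) and LI replicate 1 (33.7%). In LI replicate 1 the mesothelial-like cells held 32.5% and the Adamdec1/Bmp3 mesenchyme 3.41%. For Csf1 and Cxcl12 the other mesenchyme, the largest group, held the most, with 41.2% ± 7.59 and 49.3% ± 6.65. The group that held the most Cxcl13 differed between libraries: it was the other mesenchyme in both LI libraries (57.1% and 64.8%), the mesothelial-like cells in SI replicate 1 (51.1%) and the Tac2/Wnt4 mesenchyme in SI replicate 2 (48.8%).

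**Figure D3:**
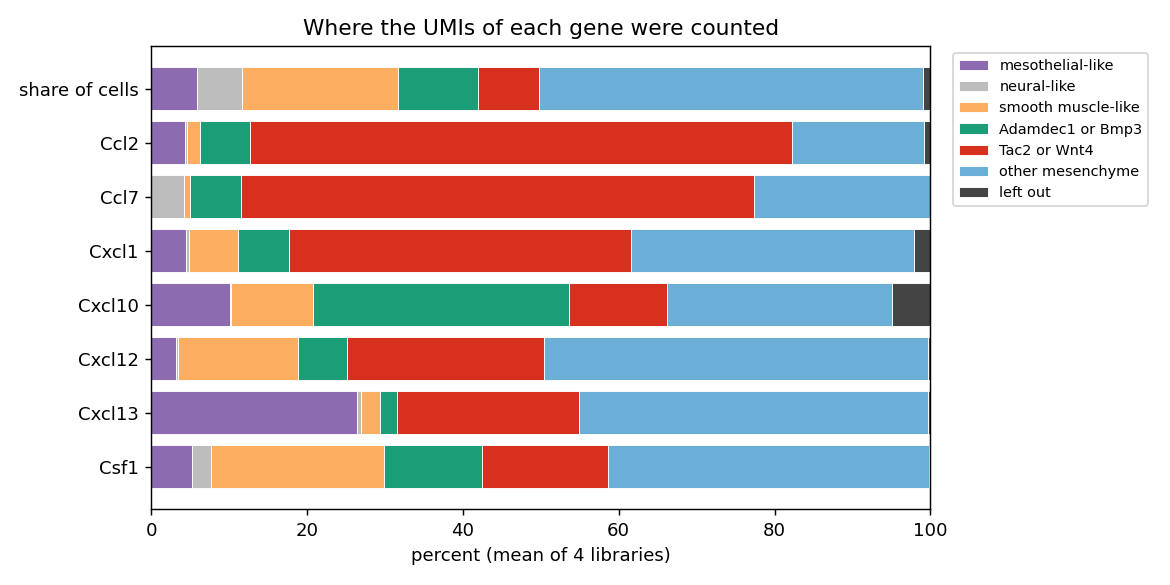
Percent of each gene's UMIs counted in each cell group (horizontal axis, mean of the 4 libraries), with the percent of kept cells at the top. The Tac2/Wnt4 mesenchyme is a narrow band of the cells but takes most of the bars of Ccl2 and Ccl7.

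The genes also differed in how many cells carried their transcripts. The 1% of kept cells with the most UMIs of a gene held 8.19% to 11.2% of the Cxcl12 UMIs of a library and 18.9% to 33.5% of Csf1. For Cxcl13 the range was 38.1% to 50.6%, for Cxcl1 56.7% to 70.2% and for Cxcl10 66.6% to 84.8%. For Ccl2 it was 77.9% in SI replicate 2, the library with the most Ccl2, and 100% in the other 3, where fewer than 1% of the cells had a UMI at all, as was the case for Ccl7 in every library. A low level limits this measure, since a gene with few UMIs cannot be spread over many cells, but Cxcl10 had more UMIs than Csf1 in every library (323 against 224, 574 against 554, 806 against 459 and 1243 against 782) and was found in fewer cells, 2.46% to 4.77% of a library against 3.46% to 10.8% unthinned. In the kept cells the highest count was 150 UMIs in a cell for Cxcl10, 36 for Ccl2, 34 for Cxcl1, 28 for Cxcl12 and 27 for Cxcl13.

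**Figure D4:**
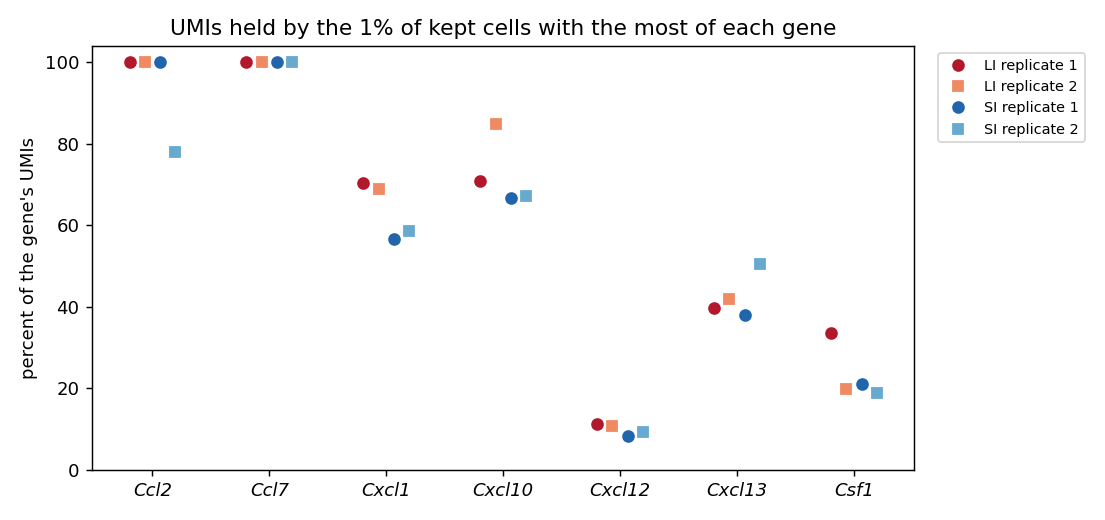
Percent of a gene's UMIs held by the 1% of kept cells with the most of it (vertical axis), for the 7 genes; each point is a library. Cxcl12 lies at 8.19% to 11.2%, Csf1 and Cxcl13 between 18.9% and 50.6%, and the other chemokines at 56.7% or above.

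Within the Tac2/Wnt4 mesenchyme, a minority of the cells with Cxcl1 also had Cxcl10 or Ccl2, and in most libraries this share was above that in cells without Cxcl1. After thinning to 2000 UMIs, 9 of the 27 cells with a Cxcl1 UMI in LI replicate 1 also had a Cxcl10 UMI (33.3%), as did 7 of 26 in SI replicate 1 (26.9%), 14 of 62 in SI replicate 2 (22.6%) and 3 of 13 in LI replicate 2. Among cells without Cxcl1, Cxcl10 was found in 0.83% to 2.29%. Ccl2 was found in 18.5% of the Cxcl1 cells of LI replicate 1, 19.2% of SI replicate 1 and 24.2% of SI replicate 2, in none of the 13 of LI replicate 2, and in 1.58% to 3.67% of the cells without Cxcl1 in the 3 former libraries. Cxcl10 was found in 1 of 11 cells with Ccl2 in LI replicate 1, 1 of 7 in LI replicate 2, 3 of 16 in SI replicate 1 and 7 of 37 in SI replicate 2. Cxcl12 showed no such split: it was found in 48.1%, 42.3% and 67.7% of the cells with Cxcl1 and in 42.6%, 50.9% and 61.3% of the cells without it, in LI replicate 1, SI replicate 1 and SI replicate 2. In the Adamdec1/Bmp3 mesenchyme of SI replicate 2, 11 of 21 cells with Cxcl1 also had Cxcl10, against 6.86% of the cells without Cxcl1. The cells of a library are not independent replicates, and these shares are given as a description. Before thinning, cells with Cxcl1 were deeper in SI replicates 1 and 2 but not in LI replicate 1. Their medians were 4579, 8869.5 and 9394 UMIs in LI replicate 1, SI replicate 1 and SI replicate 2, against 4695, 8142 and 7849.5 without Cxcl1. The part of depth in these shares was not tested.

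The regional comparison asked whether the stromal signals differed between the SI and the LI. Over all kept cells, 0 of 7 members were called by edgeR, where 1.88% of 14926 genes were called; 4 had an unadjusted p under 0.05 and 3 were called by DESeq2. Ccl2 was at 1.73 and 2.09 CPM in the LI libraries and at 2.52 and 9.51 CPM in the SI libraries (1.78 ± 0.56, adjusted p = 0.220). Cxcl10 was at 11.2 and 12.49 CPM in LI and 16.7 and 21.8 CPM in SI (0.83 ± 0.19, adjusted p = 0.0968), and Cxcl13 at 16.4 and 21.5 CPM in LI and 7.45 and 10.8 CPM in SI (-0.92 ± 0.23, adjusted p = 0.120). The regions did not overlap in these 3 genes, which missed the threshold with edgeR and were the 3 called by DESeq2 (adjusted p = 0.0166 for Ccl2, 0.0167 for Cxcl10 and 0.0165 for Cxcl13). The remaining member with an unadjusted p under 0.05 was Cxcl1 (0.74 ± 0.28, adjusted p = 0.301). It was at 8.98 CPM in SI replicate 1, and at 8.28 CPM there without 1 cell that held 34 of its 434 UMIs. The size of the Ccl2 difference turned on single libraries: it was 2.42 without SI replicate 1 (adjusted p = 1.87e-08), 1.88 without LI replicate 2 (adjusted p = 0.0279) and 0.56 without SI replicate 2 (adjusted p = 0.831). Cxcl10 passed without LI replicate 2 (0.87, adjusted p = 0.0150), and 150 of its 806 UMIs in SI replicate 1 came from a single cell outside the 6 groups, without which that library was at 13.6 CPM. Cxcl13 passed without LI replicate 1 (-1.10, adjusted p = 0.00404), LI replicate 2 (-0.76, adjusted p = 0.0357) or SI replicate 2 (-1.18, adjusted p = 0.0288). In whole-library sums the number of cells of a group and the RNA per cell cannot be told apart, and the makeup of the regions differed: Tac2/Wnt4 mesenchyme was 6.87% ± 0.175 (SD, n = 2) of the LI and 9.01% ± 2.34 of the SI cells, Adamdec1/Bmp3 mesenchyme 9.01% ± 1.21 and 11.5% ± 0.809, and mesothelial-like cells 7.78% ± 3.75 and 4.03% ± 1.82. The widest gaps were in the other mesenchyme, with 55.7% ± 3.57 of the LI and 42.7% ± 5.33 of the SI cells, and in the smooth muscle-like cells, with 14.2% ± 2.02 and 25.9% ± 3.69.

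Within groups, the single member called between regions was Cxcl13 in the other mesenchyme. Its level of 17.7 and 28.6 CPM in LI and 4.70 and 8.15 CPM in SI gave a difference of -1.69 ± 0.31 (3.24-fold higher in LI, adjusted p = 0.0283), in a comparison where 1 of 6 members tested was called and 3.56% of 13593 genes were called (2.46% lower in SI). In simulated data the share of false calls in this comparison was above the threshold. The difference was called under 10 of 11 other settings, ranging from -2.11 to -1.34. The 4 clusters of the other mesenchyme, named after their values were seen, were not in equal proportion. Of its 3557, 2449, 2389 and 2434 cells, a cluster led by Pitx1 held 2234, 1582, 1135 and 1390. A cluster led by Hist1h2ae held 845, 494, 884 and 594, and 1 led by Hist1h2bc held 332, 197, 348 and 328. The last, led by Foxd1, had 146 and 176 cells in the LI libraries and 22 and 122 cells in the SI libraries. The part of these clusters in the result was not tested. A Cxcl13 UMI was found in 3.27% (95% Wilson interval 2.73% to 3.92%) and 4.57% (3.81% to 5.47%) of thinned cells in LI replicates 1 and 2 and in 0.71% (0.45% to 1.14%) and 1.65% (1.21% to 2.23%) in SI replicates 1 and 2, and unthinned in 5.15%, 9.39%, 3.85% and 4.60%. In the mesothelial-like cells Cxcl13 was at 32.6 and 72.8 CPM in LI and at 82.8 and 60.5 CPM in SI (0.53 ± 0.32, adjusted p = 0.619), a difference that passed without LI replicate 2 (1.18, adjusted p = 0.0100). The test of the difference between the groups, an interaction term, gave 2.37 ± 0.44 (adjusted p = 0.00465), the single member called there, where 2.32% of genes were called and 1.17% called higher. This interaction was lost with DESeq2 (2.32, adjusted p = 0.232) and without LI replicate 1 (2.18, adjusted p = 0.0845).

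No member was called between regions in the mesothelial-like cells (0 of 5 tested, 1.06% of genes called, 1 unadjusted p under 0.05), the neural-like cells (0 of 2, 0.31% called, none under 0.05), the smooth muscle-like cells (0 of 5, 1.45% called, 1 under 0.05), the Adamdec1/Bmp3 mesenchyme (0 of 5, 3.01% called, 1 under 0.05) or the Tac2/Wnt4 mesenchyme (0 of 7, 0.826% called, 2 under 0.05), with edgeR and equally with DESeq2. The interaction terms of the other groups called no member with either tool, where 13.7% of genes were called for neural-like, 0.528% for smooth muscle-like, 0.973% for Adamdec1/Bmp3 and 0.355% for Tac2/Wnt4 cells, and 0, 1, 3 and 1 members had an unadjusted p under 0.05. The largest differences that missed the threshold within groups were those of Ccl2 in the other mesenchyme (0.20 and 0.98 CPM in LI, 1.31 and 3.89 CPM in SI, 2.19 ± 0.69, adjusted p = 0.159) and Cxcl10 in the mesothelial-like cells (-2.09 ± 0.51, adjusted p = 0.0901). Both were larger in some fits with a library left out. The Ccl2 difference became 3.80 when LI replicate 2 was dropped and 2.76 when SI replicate 1 was dropped. That of Cxcl10 became -2.62 when LI replicate 2 was dropped. The Ccl2 value of 3.80 rested on LI replicate 1 as the only LI library, and all 3 of its Ccl2 UMIs in the other mesenchyme came from a single cell. In SI replicate 1, 10 of the 29 Ccl2 UMIs of this group were in 1 cell, and the level was 0.86 CPM without that cell. For Cxcl10 in the Adamdec1/Bmp3 mesenchyme, at 4.30 and 48.5 CPM in LI and 31.4 and 102 CPM in SI, the difference was 1.38 ± 0.74 (adjusted p = 0.391) and its size turned on single libraries, being 4.04 without LI replicate 2 (adjusted p = 8.18e-29), 0.60 without LI replicate 1 (adjusted p = 0.0411) and 0.35 without SI replicate 2 (adjusted p = 0.945). In the Tac2/Wnt4 mesenchyme, where 5 of the 7 members were highest, the regional difference of Csf1 (0.08 ± 0.26, adjusted p = 0.985) was smaller than its standard error. That of Cxcl12 (0.34 ± 0.22, adjusted p = 0.852) was larger than its standard error. Those of Ccl7 (-1.19 ± 0.52, adjusted p = 0.624) and Cxcl1 (0.61 ± 0.28, adjusted p = 0.652) were larger and had opposite signs. Under 11 other settings they ranged from -2.02 to -0.82 for Ccl7 and from 0.17 to 0.91 for Cxcl1. The difference of Ccl2 was 1.19 ± 0.39 (adjusted p = 0.379), which passed without LI replicate 1 (1.39, adjusted p = 0.000185), LI replicate 2 (0.99, adjusted p = 0.0191) or SI replicate 1 (1.67, adjusted p = 0.0438). It fell to 0.35 without SI replicate 2 (adjusted p = 0.999), the library with 60.4 CPM.

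**Figure D5:**
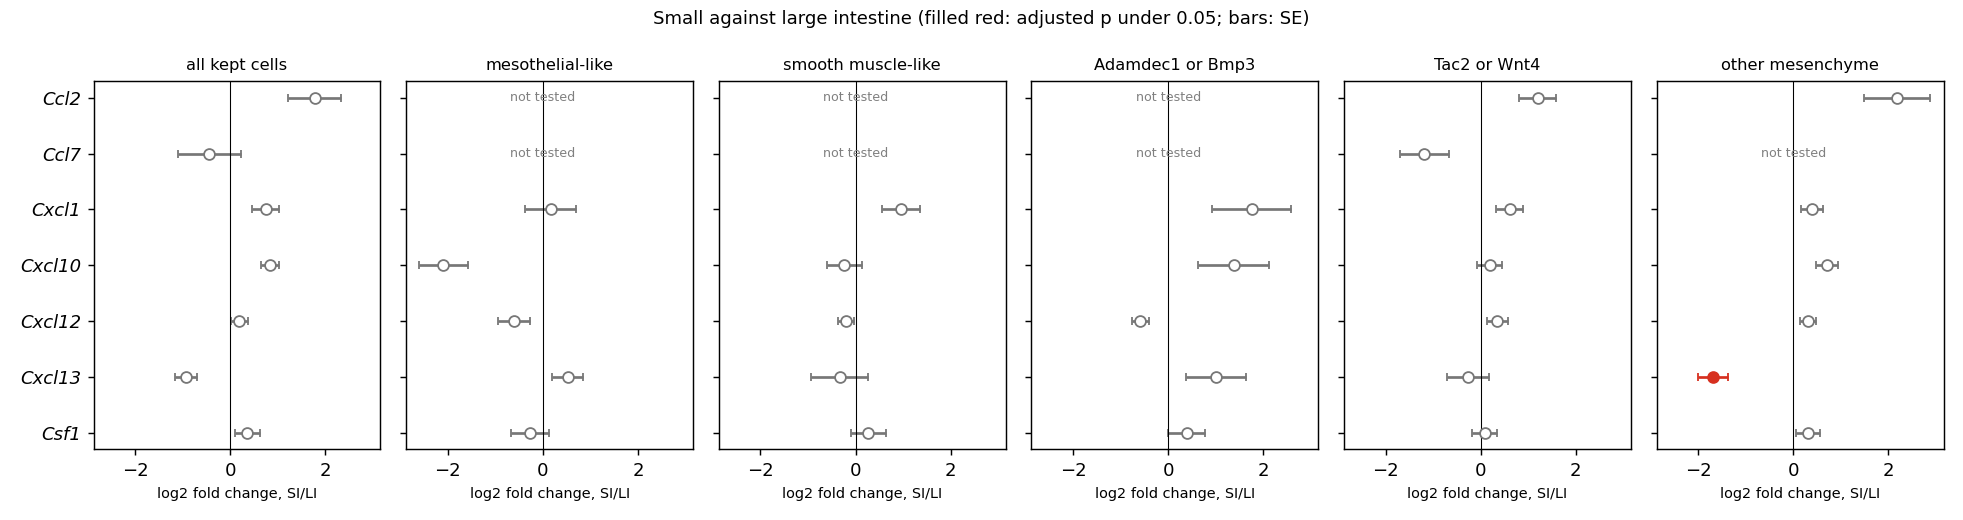
Log2 fold change of SI over LI for each gene, over all kept cells and within 5 cell groups; bars are standard errors, filled red points have an adjusted p under 0.05, and genes too low to test are marked. Cxcl13 in the other mesenchyme, at -1.69, is the single filled point.

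Receptors are given here for CSF1 and CXCL12 alone, in cells that had been sorted to lack CD45. Csf1r had 0 to 4 UMIs per library, and Il34, which encodes the other ligand of CSF1R, had 2 to 5. Cxcr4 stood at 0.45 to 0.84 CPM per library and was higher in the neural-like cells, at 2.11 to 3.30 CPM (2.80 ± 0.45 against other mesenchyme, adjusted p = 1.69e-05). Ackr3, the scavenging receptor of CXCL12, was measured more widely, at 13.1 to 20.7 CPM over all kept cells. It was 29.6 to 59.3 CPM in the mesothelial-like cells (1.33 ± 0.21, adjusted p = 3.39e-05) and 5.59 to 12.9 CPM in the Tac2/Wnt4 mesenchyme, where Cxcl12 was highest and Ackr3 lower than in other mesenchyme (-0.98 ± 0.25, adjusted p = 0.00721). Of 18 other CC ligands 3 were expressed enough to test, and Ccl11, the eosinophil attractant eotaxin, was the 1 called in the Tac2/Wnt4 mesenchyme (6.55 ± 0.43, adjusted p = 1.49e-08). Of the other CXC ligands 2 were tested there and Cxcl2, like CXCL1 a ligand of CXCR2, was called higher (2.65 ± 0.50, adjusted p = 0.000672). Cxcl14 stood at 0.12 to 0.70 CPM per library.

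Lists of genes that respond to NF-kB, to cell stimulation and to interferon were counted in the same comparisons; no test linked them to the members. Of 11 tested genes of NF-kB feedback and inflammation, 6 were called higher in the Tac2/Wnt4 mesenchyme, 0 lower and 5 not called. The shares over all genes there were 10.7% called higher and 21.4% in either direction. The list had a median log2 fold change of 0.70 against -0.02 over all genes. The higher genes were led by Tnfaip2 (3.83 ± 0.48), Icam1 (2.24 ± 0.23), which encodes an adhesion molecule for leukocytes, and Tnfaip3 (1.39 ± 0.25), an inhibitor of NF-kB signalling. Of 16 immediate early genes, which are also induced when tissue is dissociated with enzymes as was done here, 10 were higher, 0 lower and 6 not called, led by Ier3 (1.70 ± 0.28), Atf3 (1.62 ± 0.25) and Dusp1 (1.52 ± 0.19). The summed immediate early transcripts were 7443 to 15678 CPM in the Tac2/Wnt4 mesenchyme, 4734 to 9155 CPM in other mesenchyme and 2478 to 4089 CPM in neural-like cells; their part in the levels of the inducible chemokines was not tested. Of 6 interferon response genes 1 was higher, Irf1 (0.84 ± 0.13), and 1 lower, Bst2 (-2.29 ± 0.49). The 10 immune markers summed to 2.83 to 18.7 CPM in this group and 4.86 to 14.8 CPM in other mesenchyme.

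In the Adamdec1/Bmp3 mesenchyme, where Cxcl10 was highest and 16.8% of all genes were called, 0 of 6 interferon response genes and 0 of 16 immediate early genes were called. Of the 11 NF-kB and inflammatory genes 2 were higher, Ptgs2 (2.20 ± 0.33), which encodes a prostaglandin synthase, and Birc3 (0.90 ± 0.28), and 1 was lower, Nfkbiz (-0.57 ± 0.14). In the mesothelial-like cells, where Cxcl13 was highest and 41.7% of all genes were called, 10 of 16 immediate early genes were higher and 3 lower, and of the 11 NF-kB and inflammatory genes 3 were higher and 1 lower, a share near that of all genes, with Ptgs2 at 3.28 ± 0.33 and Vcam1 at -4.83 ± 1.51. Their immediate early transcripts summed to 5654 to 13318 CPM. In the neural-like cells, where 30.5% of all genes were called lower, 10 of the 11 NF-kB and inflammatory genes and 14 of 16 immediate early genes were lower.

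Across the 24 sums of 6 groups in 4 libraries, the genes whose log2(CPM + 1) was most like that of each member were named, among 8656 genes with a mean of at least 10 CPM. For Cxcl1 they were Eml4 (Pearson r = 0.92), Gadd45b, Phactr2, Nr2f2 and Fkbp14, and for Cxcl10 Col14a1 (0.89), Jdp2, Vstm4, Kdelr3 and Fam162b. For Cxcl12 they were Il11ra1 (0.97), Angpt1, Cd248, Marveld1 and Bgn, for Cxcl13 Wt1 (0.95), Hs6st2, Irf2bpl, Arxes2 and Tmem88, and for Csf1 Cspg4 (0.94), Myadm, Egfr, Col6a3 and Jag1. Wt1 is a mesothelial marker, Col14a1 was a leading gene of the Adamdec1/Bmp3 cluster, and Cspg4 encodes the proteoglycan NG2 of mural cells. The sums share their libraries and most of the spread lies between groups, so these values describe likeness and carry no test. Ccl2 and Ccl7 were below 10 CPM on average and were not compared.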

How the data were processed

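Stromal cells sorted from E12.5 mouse intestine were profiled by droplet single-cell RNA-seq in 4 libraries. The authors digested the tissue with enzymes for 30 min, counted reads with Cell Ranger 3.1.0 on mm10 and used Seurat 3, per the labels and methods; whether counting used strand is not given in the sources used here. The deposited matrices hold raw UMI counts, 31630548 to 62886525 per library. Any pair of libraries shared 8 to 15 barcodes, and replicates differed by more than sampling noise (chi-square per degree of freedom 64.8 for LI, 43.6 for SI).

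Cells with at least 1000 genes and under 10% mitochondrial UMIs were kept. The highest Scrublet scores (scanpy 1.11.5) were removed as doublets at 0.8% per 1000 cells, 183 to 348 per library, since the automatic threshold marked 1 to 6. Cells were integrated and clustered in Seurat 5.3.0 at resolution 0.3, regressing out cell cycle scores, on 1932 of 2000 variable genes, leaving out members, listed genes and Hox genes. A cluster took a class with at least 3 markers among its 25 leading genes, or else Bmp3, Adamdec1, Tac2 or Wnt4 among its 10 leading genes; this rule was set after the clusters were seen. Members and lists were chosen with earlier results of these data known. Genes named beside the members were at most the 3 called genes with the largest change per list and comparison, Ackr3, Cxcr4, Csf1r, Il34 and Cxcl14 in any case, and, for members with a mean of at least 10 CPM, the 5 genes with the highest Pearson correlation.

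Summed counts were tested with edgeR 4.0.16 (quasi-likelihood, TMM, filterByExpr; R 4.3.3) with Benjamini-Hochberg adjustment over all genes and a threshold of 0.05. Regions were compared within groups without a covariate, and groups with library as a block. The code was tested on simulated data; for SI against LI in other mesenchyme, the share of false calls among simulated calls was above the threshold. Alternatives were DESeq2 1.42.0, its size factors in edgeR, no low-count filter, all barcodes, doublets kept, resolution 0.6, thinned sums, a replicate block, no library block, each library left out and, chosen after seeing the data, the largest cluster of other mesenchyme as reference.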

Additional observations from a re-analysis of the deposited data

Results flagged for a closer look

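For Cxcl13 the interaction of region and group for mesothelial-like cells against other mesenchyme was 2.37 on the log2 scale with edgeR (adjusted p = 0.00465), a call that was lost with DESeq2 (adjusted p = 0.232) and without LI replicate 1 (adjusted p = 0.0845).

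Among the cells that were left out of the groups, the 12 of SI replicate 1 held Cxcl10 at 453.6 CPM and Cxcl1 at 105.1 CPM, above the level of any group. A single cell of 23809 UMIs gave 150 of 151 Cxcl10 UMIs and 34 of 35 Cxcl1 UMIs; it had 0 UMIs of the 10 immune markers and 85 UMIs of 2 mesothelial markers.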

How the results depend on the processing

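No log2 fold change of a member that was called in the reported or the other fit changed sign. Among those called in neither, signs did change, as for Ccl7 between regions over all kept cells (-0.44 as reported, -1.95 to 0.24 under other settings). In all, 1064 kept their side of the threshold, 59 passed it where the reported test had not, and 31 no longer passed. Between SI and LI, DESeq2 called 3 members over all kept cells where edgeR called 0. Without the filter on low counts, 4 members were called over all kept cells, 2 in mesothelial-like cells, 3 in Adamdec1/Bmp3 and 1 in Tac2/Wnt4 mesenchyme, and 0 in other mesenchyme, where Cxcl13 then had an adjusted p of 0.0640. Against other mesenchyme, the 4 calls in smooth muscle-like cells became 1 with doublets kept, 2 with sums thinned to equal totals, 1 without library as a block and 2 against the largest cluster of other mesenchyme alone. For the interaction of region and group, mesothelial-like cells had 1 call, 0 with DESeq2 and 3 without the filter. The other interactions had 0, and had 1 in neural-like cells with doublets kept, 1 in smooth muscle-like cells without the filter, 1 and 3 in Adamdec1/Bmp3 mesenchyme with the size factors of DESeq2 and without the filter, and 1 in Tac2/Wnt4 mesenchyme without the filter. The causes of these shifts were not tested.

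Leaving out 1 library leaves an arm with a single library that is assumed to vary like the other. Members called between regions were then 1 to 3 over all kept cells, 0 to 3 in mesothelial-like cells, 0 in neural-like and in smooth muscle-like cells, 0 to 3 in Adamdec1/Bmp3, 1 to 2 in Tac2/Wnt4 and 1 to 2 in other mesenchyme. Against other mesenchyme they were 2 to 3 in mesothelial-like, 6 to 7 in neural-like and 1 to 4 in smooth muscle-like cells, 2 to 3 in Adamdec1/Bmp3 and 4 to 6 in Tac2/Wnt4 mesenchyme. For the interactions they were 0 to 2 in mesothelial-like cells, 0 in neural-like and smooth muscle-like cells, and 0 to 1 in Adamdec1/Bmp3 and Tac2/Wnt4 mesenchyme.

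Counts over all genes moved by more than 1.5 times in most comparisons. Between regions, 280 genes were called over all kept cells (274 to 1167 under the other settings, 537 to 1925 with a library left out), 113 in mesothelial-like (87 to 741, 54 to 866), 35 in neural-like (35 to 408, 0 to 1473) and 175 in smooth muscle-like cells (146 to 847, 176 to 902), and 342 in Adamdec1/Bmp3 (254 to 1202, 0 to 1711), 91 in Tac2/Wnt4 (55 to 310, 59 to 670) and 484 in other mesenchyme (293 to 1307, 666 to 2108). Against other mesenchyme, 1188 genes were called in smooth muscle-like cells (501 to 1886, 544 to 1318), 5391 in mesothelial-like (3571 to 5434, 3773 to 5036), 2168 in Adamdec1/Bmp3 (971 to 3589, 998 to 2226) and 2775 in Tac2/Wnt4 mesenchyme (1343 to 2953, 1554 to 2181). For the interactions they were 308 in mesothelial-like (251 to 786, 55 to 306), 1810 in neural-like (1468 to 2059, 624 to 1276) and 70 in smooth muscle-like cells (35 to 337, 14 to 115), 129 in Adamdec1/Bmp3 (89 to 458, 45 to 167) and 47 in Tac2/Wnt4 mesenchyme (31 to 354, 22 to 51).

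The SI and LI libraries share replicate numbers, and nothing in the labels says that a number marks a shared experiment. With the replicate block, members called between regions were 3 over all kept cells (Ccl2, Cxcl10 and Cxcl13), 2 in mesothelial-like cells (Cxcl10 and Cxcl12), 3 in Adamdec1/Bmp3 mesenchyme (Cxcl1, Cxcl10 and Cxcl12) and 2 in other mesenchyme (Cxcl13 and Ccl2), and all genes called were 1000, 741, 1202 and 1307 in these comparisons. The deviations of same-numbered libraries correlated at 0.254 to 0.454, over 2 pairs.

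The shares of cells rest on depth: the mean share was highest in the Tac2/Wnt4 mesenchyme for 5 of 7 members at 2000 UMIs per cell, 6 at 3000 UMIs and 5 without thinning. Counts of Ccl2 and Ccl7 were too low for the regional test in several groups, Ccl7 having 82 UMIs in all.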
